A study of Mus musculus with 6 samples.

Results

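Pseudouridine synthases and the proteins of the box H/ACA ribonucleoprotein were examined in mouse tumor organoids (MTOs) with and without chemotherapy. The 10 genes were chosen by name, as enzymes that 5-fluorouridine in RNA can trap or inhibit together with the proteins that 1 of them needs to work, out of 24190 genes in the count table. They are Dkc1, Nop10, Nhp2 and Gar1, which encode the box H/ACA core proteins, and Pus1, Pus3, Pus7, Pus10, Trub1 and Trub2, which encode synthases that act without a guide RNA. All 6 samples were RNA of MTO54, an organoid line from a genetically engineered mouse tumor, labelled parental, so the controls carry its engineered alleles as well. Control samples (n = 3) were kept in complete stem cell medium and Folfiri samples (n = 3) received 5FU at 50 μg/μl (the unit as labelled, which may be a slip) with SN38 at 100 nM for 2 days. The duration is that of the labels, and a legend of the study gives a longer one. Irinotecan acts through SN38, a topoisomerase I inhibitor. MTO54 is a single organoid line, and the study calls the samples of a group biological replicates. Neither it nor the labels say whether they were separate cultures, so p-values measure the spread between these samples, which may be technical.

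Pseudouridine is an isomer of uridine in which the base is joined to the sugar through a carbon atom, and it is the most abundant modified nucleotide of cellular RNA. In ribosomal and spliceosomal RNA it is made mainly by box H/ACA particles, in which a guide RNA pairs with the target and dyskerin, the product of Dkc1, isomerizes the chosen uridine. Stand-alone synthases find their sites, mostly in transfer RNA, mitochondrial RNA and messenger RNA, without a guide. 5FU is in part built into RNA as 5-fluorouridine, which synthases bind tightly as they attempt to isomerize it.

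Promoter windows of 5 of these genes are printed first because the genes moved together, and because they include those with the largest and the smallest change. Each window covers the stretch just before a RefSeq start on GRCm38.p6 and the first bases after it, and is written 5′ to 3′ on the strand of the gene. Capitals mark the letters CACGTG (an E-box, bound by MYC and MAX among other factors), CCGGAAG (the core bound by ETS factors) and CCAAT, on either strand, so the capitals of Gar1 read as the reverse complement of CCGGAAG. The windows are Dkc1 at chrX:75095604-75095903, plus strand, Gar1 at chr3:129831347-129831646, minus strand, Nop10 at chr2:112261676-112261975, plus strand, Pus1 at chr5:110780566-110780865, minus strand, and Pus7 at chr5:23783662-23783961, minus strand.
Dkc1: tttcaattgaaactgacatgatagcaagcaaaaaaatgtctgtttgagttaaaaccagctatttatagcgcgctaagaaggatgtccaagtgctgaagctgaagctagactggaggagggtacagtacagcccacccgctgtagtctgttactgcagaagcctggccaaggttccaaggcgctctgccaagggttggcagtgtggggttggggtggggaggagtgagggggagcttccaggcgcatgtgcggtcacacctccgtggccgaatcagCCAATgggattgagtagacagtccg
Gar1: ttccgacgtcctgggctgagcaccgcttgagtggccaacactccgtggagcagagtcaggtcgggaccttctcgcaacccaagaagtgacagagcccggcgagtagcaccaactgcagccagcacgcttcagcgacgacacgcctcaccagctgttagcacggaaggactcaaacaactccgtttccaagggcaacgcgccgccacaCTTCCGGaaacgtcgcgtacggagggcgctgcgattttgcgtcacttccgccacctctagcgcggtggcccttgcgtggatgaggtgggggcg
Nop10: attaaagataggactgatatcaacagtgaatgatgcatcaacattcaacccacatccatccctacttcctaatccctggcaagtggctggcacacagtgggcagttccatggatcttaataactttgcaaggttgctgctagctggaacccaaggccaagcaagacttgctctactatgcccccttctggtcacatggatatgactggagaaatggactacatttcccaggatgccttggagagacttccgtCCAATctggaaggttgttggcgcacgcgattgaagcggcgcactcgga
Pus1: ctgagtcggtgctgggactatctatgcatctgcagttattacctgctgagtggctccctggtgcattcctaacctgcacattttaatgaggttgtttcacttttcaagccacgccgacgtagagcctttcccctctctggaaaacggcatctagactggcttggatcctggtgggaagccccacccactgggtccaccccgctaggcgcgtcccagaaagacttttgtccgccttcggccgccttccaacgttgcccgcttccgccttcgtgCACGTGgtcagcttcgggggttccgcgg
Pus7: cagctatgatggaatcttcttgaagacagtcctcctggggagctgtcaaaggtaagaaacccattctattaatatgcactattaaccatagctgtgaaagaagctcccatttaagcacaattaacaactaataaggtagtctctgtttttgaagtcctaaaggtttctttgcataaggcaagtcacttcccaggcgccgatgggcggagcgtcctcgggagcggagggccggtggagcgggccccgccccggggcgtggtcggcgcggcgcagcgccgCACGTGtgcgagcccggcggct
All 10 genes had at least 1 window, 13 in total. CACGTG was in 4 of the 13 windows, those of Pus1, Pus3 and Pus7, against 7.15% of 32851 mouse promoter windows. The 2 windows of Pus1 overlap and hold the same site, so the match is to 3 of 10 genes. CCGGAAG was in 2 of 13, those of Gar1 and Nhp2 (8.86% of all windows), and CCAAT in 6 of 13, those of Dkc1, Nop10, Nhp2, Pus3, Pus10 and Trub1 (37.4% of all windows). No set of these letters was shared by all 10 genes, and the absence of a match concerns only these letters in these windows. In Nhp2, 2 of the CCAAT matches overlap on opposite strands.

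Counts on genes ranged from 22103591 to 30098210 per sample. Levels are given as CPM, a gene's counts over the library size in megareads, with library sizes scaled by TMM, a between-sample normalization whose factors were 0.88 to 0.966 in controls and 1.10 to 1.11 after Folfiri. In edgeR's quasi-likelihood test 14692 genes were tested and 79.1% of them differed between the groups at an adjusted p under 0.05, and each count below is read against this background. Replicates of a group differed by more than sampling noise, with a chi-square per degree of freedom from 3.55 to 23.7, and control replicate 1 lay farthest from the other controls. Folfiri replicate 3 likewise lay farther from Folfiri replicates 1 and 2 (12.3 and 11.9) than these did from each other (3.55). Epithelial markers fitted the label, with a summed level of 5973 to 6943 CPM over 10 genes in controls and 4814 to 4969 CPM after Folfiri. Of these markers 5 were lower and 1 was higher after Folfiri, and the higher call was lost under several of the alternatives given below. Cdx1, not tested, and Krt20, named after its value was seen, were low throughout, at no more than 0.684 and 1.58 CPM in any sample. The 10 immune markers summed to 21.4 to 26.2 CPM in controls and 22.2 to 23.0 CPM after Folfiri, nearly all of it Cd68, while Tyrobp had at most 1 count and Cd3e was not listed. The 8 fibroblast markers summed to 1.08 to 1.44 CPM in controls and 2.02 to 2.44 CPM after Folfiri, with Lum and Postn not listed. No direction is read from calls in these 2 lists, since Ptprc, Fcer1g, Dcn and Pdgfra passed the filter on low counts only through the Folfiri samples and Col1a1 only through the controls. The 5 endothelial markers summed to 72.2 to 124.5 CPM and 65.4 to 76.4 CPM, nearly all of it Cdh5, while Emcn had at most 1 count.

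After Folfiri 9 of the 10 genes were higher (edgeR, threshold of 0.05 on the adjusted p), and the remaining gene, Pus3, was not tested. By the same rule 40.3% of all tested genes were higher and 38.8% lower. With a log2 fold change of at least 1 as a further condition the count was 7 of the 9, against 19.5% of all tested genes (16.8% were lower by that much), and the 2 below that size were Nop10 and Pus10. In each of the 9 genes every Folfiri sample lay above every control sample, as was the case for 41.6% of all tested genes, with 39.9% separated the other way. The median log2 fold change of the 9 was 1.66, and that of all tested genes was 0.02. None of the 9 passed the filter on low counts through the Folfiri samples alone, since the lowest count in any control sample was 86, for Trub2. The summed level of the 9 genes went from 252.9 to 322.9 CPM in controls to 755.2 to 839.7 CPM after Folfiri. In bulk RNA, fewer cells of a type and less RNA per cell cannot be told apart, and the same holds for more of either.

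**Figure D1:**
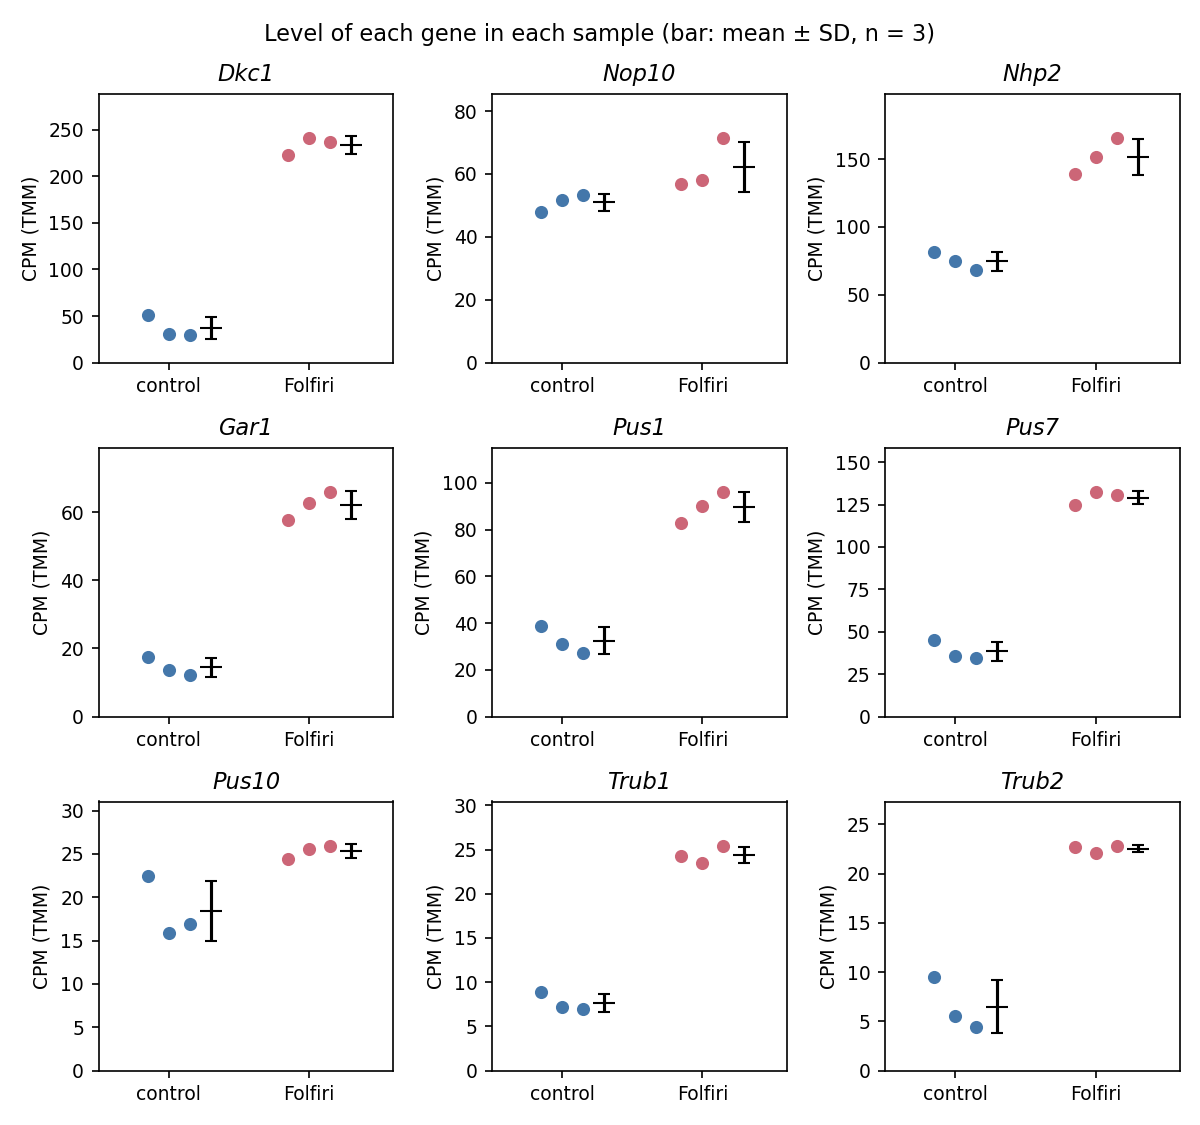
TMM-scaled CPM of the 9 tested genes in each of 3 control and 3 Folfiri samples, 1 panel per gene with its own axis from 0; points are samples, and bars are the mean ± SD. In every panel the 3 Folfiri samples sit above the 3 controls, by the widest margin in Dkc1 and by a narrow one in Nop10 and Pus10.

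Dkc1 (ENSMUSG00000031403), which encodes the catalytic subunit of the particle and is also needed for a stable telomerase RNA, lies on chromosome X of GRCm38 from 75095854 to 75109777. Its level was 50.8, 31.2 and 29.2 CPM in control replicates 1, 2 and 3 and 222.6, 240.6 and 236.9 CPM in the Folfiri samples. The lowest treated sample was far above the highest control, and control replicate 1 stood above the other controls. The group means were 37.0 ± 12.0 and 233.4 ± 9.51 CPM (SD, n = 3 each), which is 6.27-fold, with a log2 fold change of 2.65 (SE 0.18, edgeR adjusted p = 2.67e-07). Of all tested genes, 96.6% had a lower log2 fold change than Dkc1. Without control replicate 1 the log2 fold change was 2.95.
Gar1 (ENSMUSG00000028010), whose product joins the particle late and helps to load and release the target RNA, lies on chromosome 3 from 129824912 to 129831396. It was at 17.5, 13.7 and 12.1 CPM in the controls and at 57.7, 62.7 and 65.8 CPM after Folfiri. Gar1 thus moved with Dkc1 in direction, with clearly separate groups. The log2 fold change was 2.10 (SE 0.13, edgeR adjusted p = 1.28e-07), a 4.27-fold rise.
Nhp2 (ENSMUSG00000001056), which encodes an RNA-binding subunit, lies on chromosome 11 from 51619735 to 51623714. Its CPM values were 81.9, 74.6 and 68.0 in controls and 138.9, 151.2 and 165.3 after Folfiri, which gave a log2 difference of 1.02 (SE 0.09, edgeR adjusted p = 2.02e-06). Nhp2 therefore about matched the 2-fold condition, with a 95% confidence interval of 0.82 to 1.22 on the log2 scale.
Nop10 (ENSMUSG00000027133) encodes the smallest subunit, which bridges dyskerin and NHP2, and lies on chromosome 2 from 112261926 to 112263269. It was at 48.0, 51.7 and 53.4 CPM in controls and at 56.9, 58.2 and 71.3 CPM after Folfiri. The groups did not overlap, yet the nearest samples were close and Folfiri replicate 3 stood apart from the other treated samples. Among the 9 genes Nop10 changed least, by a log2 fold change of 0.29 (SE 0.10, edgeR adjusted p = 0.0194), above that of 59.7% of all tested genes. Without Folfiri replicate 3 it was 0.18 and no longer passed the threshold (edgeR adjusted p = 0.0673).

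**Figure D2:**
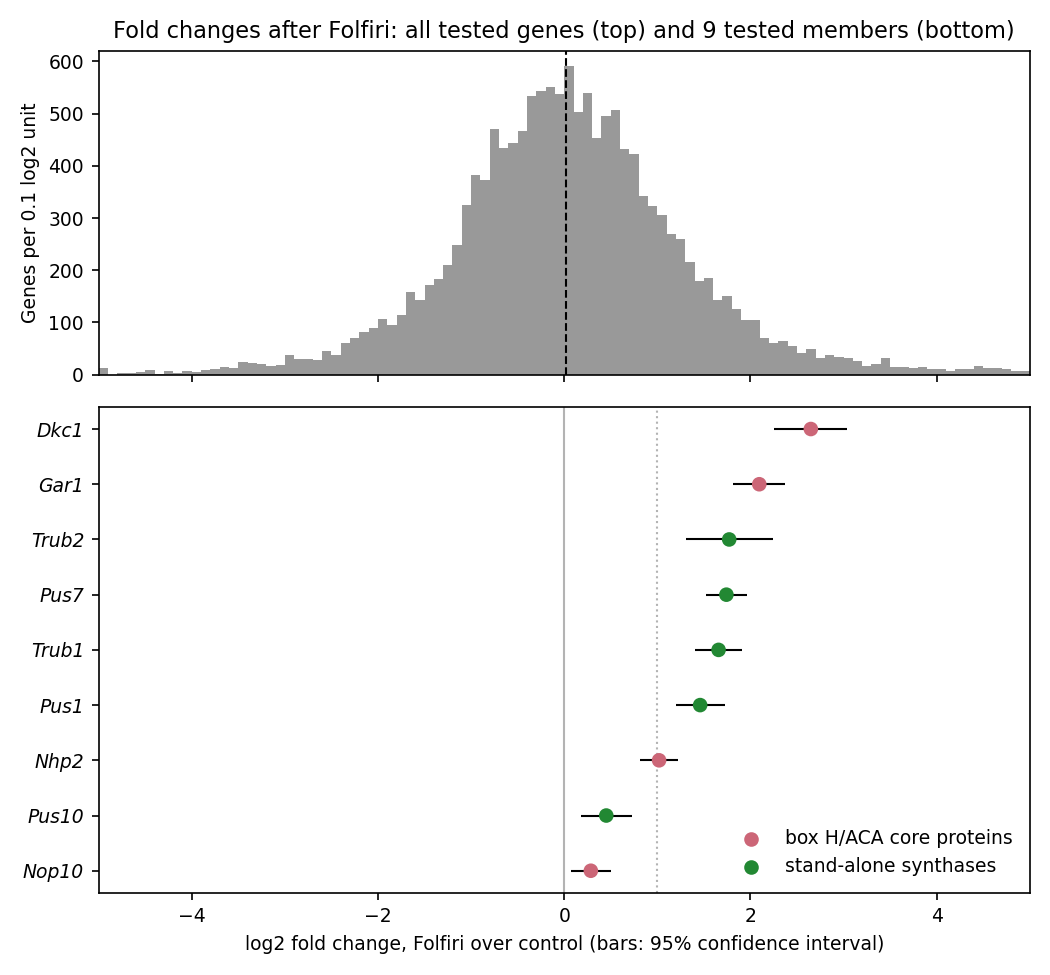
Top, number of genes per 0.1 log2 unit of the log2 fold change (Folfiri over control) for all 14692 tested genes, with values beyond the axis placed in the end bins and the median as a dashed line; bottom, the 9 tested genes with 95% confidence intervals on the same axis, a dotted line marking a log2 fold change of 1. Dkc1 (2.65) and Gar1 (2.10) lie in the upper tail, whereas Nop10 (0.29) and Pus10 (0.45) lie within the bulk of all genes.

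The subunits of the particle rose by unequal amounts. A ratio between 2 genes within a sample does not depend on how samples are scaled to each other, and it was formed from RPKM, which are the CPM values divided by exonic length in kilobases. The log2 ratio of Nop10 to Dkc1 was 1.81, 2.62 and 2.77 in controls and -0.07, -0.15 and 0.16 after Folfiri. Per length, then, Nop10 stood 5.28-fold above Dkc1 in controls and at about the same level after Folfiri (ratio 0.985). The difference in log2 ratio was -2.42, larger than the spread in either group (SD 0.51 and 0.16, n = 3 each), and an exact two-sided permutation test gave p = 0.1, the smallest that 3 samples against 3 allow. For Nhp2 over Dkc1 the mean log2 ratio went from 2.90 ± 0.32 to 1.22 ± 0.09, and for Gar1 over Dkc1 from -0.06 ± 0.18 to -0.65 ± 0.06 (SD, n = 3 each, exact permutation p = 0.1 for both). After adjustment over the 5 ratios examined, these 3 p-values were 0.125, so none could pass a threshold of 0.05 in this design.
As a share of the summed RPKM of the 4 core genes, Dkc1 made up 6.91% ± 1.79 in controls and, in the Folfiri samples, 20.2% ± 1.12 (SD, n = 3 each). Nop10 went the other way, from 35.9% ± 4.07 to 19.9% ± 1.18, while Nhp2 held the largest share in both groups, 50.7% ± 1.67 and 47.1% ± 0.427. These are shares of messenger RNA by annotated exonic length, which counts the exons of every annotated transcript.

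**Figure D3:**
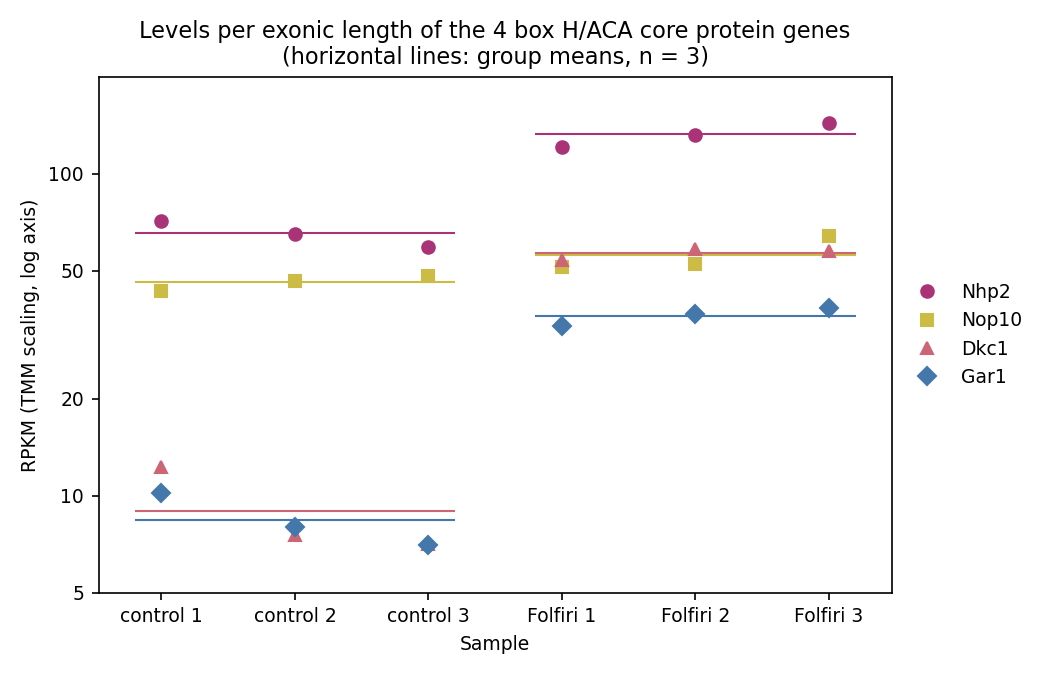
RPKM (log axis) of Nhp2, Nop10, Dkc1 and Gar1 in each of the 6 samples, with horizontal lines at the group means (n = 3). Dkc1 (8.99 RPKM in controls, 56.6 after Folfiri) starts well below Nop10 (46.0 and 56.1) and reaches it after Folfiri, and Gar1 starts beside Dkc1 and ends below it.

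Among the stand-alone synthases, Pus7, Trub2, Trub1 and Pus1 rose more than 2-fold and Pus10 rose less. Pus7 (ENSMUSG00000057541, chromosome 5 from 23740648 to 23783711) modifies transfer RNA, messenger RNA and small nuclear RNA. It was at 45.0, 36.0 and 34.6 CPM in controls and at 124.7, 132.2 and 130.4 CPM after Folfiri, giving a log2 difference of 1.74 (SE 0.10, edgeR adjusted p = 9.69e-08). Its 3 treated samples lay close together, with a coefficient of variation of 3.02%. Pus1 (ENSMUSG00000029507, chromosome 5 from 110773667 to 110780659), which modifies transfer RNA in the nucleus and in mitochondria, was at 38.8, 31.3 and 27.4 CPM in controls and at 82.9, 90.1 and 95.97 CPM after Folfiri. Its groups were also far apart, at a log2 fold change of 1.46 (SE 0.12, edgeR adjusted p = 1.08e-06). The log2 RPKM ratio of Pus7 to Pus1 averaged -1.68 ± 0.07 in controls and, in the Folfiri samples, -1.40 ± 0.08 (SD, n = 3 each, exact permutation p = 0.1, adjusted p = 0.125).
Trub1 (ENSMUSG00000025086, chromosome 19 from 57452912 to 57491005) makes the pseudouridine of the T loop of transfer RNA and also acts on messenger RNA. It rose from 8.86, 7.24 and 6.94 CPM to 24.2, 23.5 and 25.4 CPM, a log2 fold change of 1.66 (SE 0.11, edgeR adjusted p = 2.91e-07). Trub2 (ENSMUSG00000039826, chromosome 2 from 29761224 to 29788502), a mitochondrial relative of the same family, rose from 9.51, 5.52 and 4.42 CPM to 22.7, 22.1 and 22.8 CPM. Both were at low levels in controls, and Trub2 had the widest spread of the 9 genes there, with a coefficient of variation of 41.3%. The log2 fold change of Trub2 was 1.77 (SE 0.21, edgeR adjusted p = 1.85e-05), and it was 2.17 without control replicate 1. The log2 RPKM ratio of Trub1 to Trub2 averaged 0.49 ± 0.38 in controls and, in the Folfiri samples, 0.29 ± 0.04 (SD, n = 3 each), with overlapping groups (exact permutation p = 0.4, adjusted p = 0.4).
Pus10 (ENSMUSG00000020280, chromosome 11 from 23665674 to 23732876) acts on transfer RNA and has been tied to microRNA processing. Its values were 22.4, 15.9 and 17.0 CPM in controls and 24.4, 25.6 and 25.9 CPM after Folfiri. The highest control, replicate 1, came close to the lowest treated sample. The log2 fold change was 0.45 (SE 0.12, edgeR adjusted p = 0.00604), above that of 65.0% of all tested genes, and it was 0.63 without control replicate 1.

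Pus3 (ENSMUSG00000032103), a transfer RNA synthase related to Pus1, lies on chromosome 9 from 35558595 to 35567401 and had a single count over the 6 samples, in Folfiri replicate 1. A count of 0 in the other 5 libraries allows up to 3 counts, or 0.0906 to 0.154 CPM, a limit that covers counting error only. In the annotation 2618 of its 2972 exonic bases (88.1%) are also exonic in Hyls1 on the opposite strand, and the library kit named in the labels does not mark strand. Hyls1 itself was at 14.1 CPM in controls and 14.03 CPM after Folfiri. How the counting treated shared bases is not given in the sources used here, so the level of Pus3 is not known from these counts, and the part of the overlap in its low count was not tested.
Smaller overlaps touch other members, and reads from these stretches cannot be told apart without strand. Trub2 shares 1082 of 6316 exonic bases with genes on the opposite strand, mainly Coq4, which went from 3.72 to 7.44 CPM. For Pus1 the shared stretch is 657 of 2180 bases, of which 519 are shared with Gm26515, not analysed here, and 138 with Gm15559, which went from 0.295 to 2.98 CPM. For Dkc1, Nhp2 and Pus10 it is at most 45 bases, and for Nop10, Gar1, Pus7 and Trub1 there is none.

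Per exonic length the 9 genes spanned a wide range in controls, from 65.3 RPKM for Nhp2 to 1.03 RPKM for Trub2. The order in controls was Nhp2, Nop10, Pus1, Dkc1, Gar1, Pus7, Pus10, Trub1 and Trub2, and the neighbours whose samples overlapped were Dkc1 with Gar1, Pus7 with Pus10, and Trub1 with Trub2. After Folfiri the order was Nhp2, Dkc1, Nop10, Pus1, Gar1, Pus7, Pus10, Trub1 and Trub2, with overlap between Dkc1 and Nop10 and between Pus1 and Gar1. Dkc1 thus passed Pus1 and Nop10 in this order, though its samples overlapped those of Nop10. Its place above Pus1 rests on the full exonic length of Pus1, of which 657 of 2180 bases are shared with genes on the opposite strand. How shared bases were counted is not given, so the passing of Pus1 is not settled by these values. The ratio of the highest to the lowest group mean was 63.6 in controls and 37.1 after Folfiri. Control replicate 1 was the highest control for 8 of the 9 genes, the exception being Nop10, and without that sample the median log2 fold change of the 9 was 1.78. Folfiri replicate 3 was the highest treated sample for 7 of the 9 genes, and without it that median was 1.63.

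The remaining genes of the pseudouridine synthase families moved the same way. Pusl1, Pus7l and Rpusd1 to Rpusd4 were tested, and by edgeR 6 of these 6 genes passed as higher, with a median log2 fold change of 1.57. The weakest call, named after its value was seen, was that of Rpusd3 (0.50, edgeR adjusted p = 0.034, 19 to 49 counts per sample), and the count was 5 in 9 of the 13 alternatives. Rpusd2 rose most, from 3.75, 2.24 and 3.24 CPM to 17.8, 18.0 and 18.6 CPM, a log2 fold change of 2.56 (SE 0.16, edgeR adjusted p = 1.63e-07). Pusl1, a relative of Pus1, had a log2 fold change of 2.15, and Pus7l, a relative of Pus7, one of 1.85. Pusl1 shares 697 of its 2329 exonic bases with Ints11 on the opposite strand, and Rpusd3 shares 1408 of 2159 with Gm44280, not analysed here.
Of 8 genes for the assembly of box H/ACA particles, 6 were higher, 1 was lower and 1 did not pass the test, with a median log2 fold change of 1.02. Nolc1, which encodes a nucleolar and Cajal body chaperone of these particles, was at 88.0, 47.0 and 45.6 CPM in controls and at 457.2, 481.6 and 481.5 CPM after Folfiri. That is a log2 fold change of 2.97 (SE 0.22, edgeR adjusted p = 5e-07), above that of Dkc1. Rpap3 and Ruvbl1, of the R2TP cochaperone complex, had log2 fold changes of 1.36 and 1.28. Pih1d1, of the same complex, fell, with a log2 fold change of -1.002 (SE 0.11, edgeR adjusted p = 1.08e-05), from 15.6 to 19.5 CPM in controls to 8.52 to 9.28 CPM. The dedicated assembly factor genes Naf1 and Shq1, named after their values were seen, had log2 fold changes of 0.77 and 1.28. Ruvbl2, also named after its value was seen, was the gene that did not pass, at -0.06 (SE 0.08, edgeR adjusted p = 0.467). When libraries were scaled by total counts alone, 7 of the 8 were higher and 1 was lower, so Ruvbl2 was then called higher.
In telomerase and H/ACA RNA end processing 5 of 6 genes were tested, of which 4 were higher and 1 was lower, with a median log2 fold change of 0.74. The weakest call, again named after its value was seen, was that of Tent4b (0.19, edgeR adjusted p = 0.0465), and the number higher was 3 in 9 of the 13 alternatives. Terc, the telomerase RNA and itself a box H/ACA RNA, was not listed in the table. Coil, the scaffold of Cajal bodies, had a log2 fold change of 1.06, Tert, the reverse transcriptase, 0.82, and Wrap53, which brings the particles to Cajal bodies, 0.74. Parn, the exonuclease that trims the ends of these RNAs, fell from 36.8, 35.1 and 37.4 CPM to 9.76, 8.55 and 8.83 CPM. Its log2 fold change was -2.01 (SE 0.09, edgeR adjusted p = 1.97e-08), the lowest of the genes on this list.

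**Figure D4:**
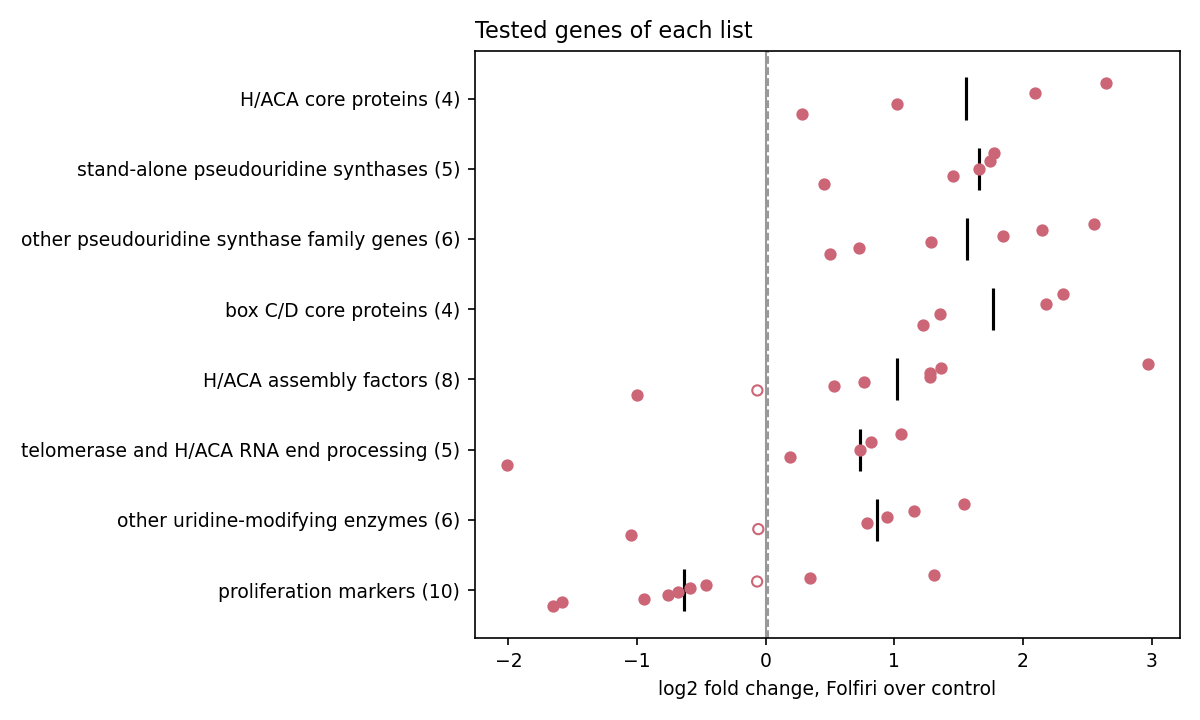
Log2 fold change (Folfiri over control) of every tested gene in 8 lists, with the number tested in brackets; filled points passed an adjusted p under 0.05 (edgeR), open points did not, black ticks are list medians, and the grey lines are 0 (solid) and the median of all tested genes (dashed). The synthase and core protein lists lie to the right of 0. Among the related genes that passed, Parn (-2.01), Trmt2b (-1.05) and Pih1d1 (-1.002) lie to the left. Of the 10 proliferation markers 8 lie to the left, and 7 of them passed.

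For comparison, box C/D particles guide methylation of the ribose rather than pseudouridylation and have their own core proteins. Their 4 genes were all higher, with a median log2 fold change of 1.77 beside 1.56 for the 4 box H/ACA core genes. Nop58 had a log2 fold change of 2.31, Nop56 2.18 and Snu13 1.36. Nop56 and Nop58 carry small nucleolar RNA genes within their spans. Dkc1 likewise overlaps a small nucleolar RNA gene, Gm25520, on the same strand. A difference between the 2 particle types was not tested.
Other enzymes that act on uridine in RNA gave a mixed picture, with 4 of 6 genes higher, 1 lower and 1 not passing the test, and a median log2 fold change of 0.87. Among them the dihydrouridine synthase genes Dus4l and Dus3l had log2 fold changes of 1.54 and 1.15, and Trmt2a, a uridine methyltransferase gene of transfer RNA, 0.95. Trmt2b, which encodes the mitochondrial counterpart, fell, with a log2 fold change of -1.05 (SE 0.08, edgeR adjusted p = 4.72e-07). Dus2, named after its value was seen, was at -0.06 (SE 0.12, edgeR adjusted p = 0.667). Trmt2a shares 879 of 5326 exonic bases with genes on the opposite strand.
Libraries were made from poly(A) RNA, and the guide RNAs themselves were scarcely measured. Of 13 genes with a Snora symbol in the table, 3 were tested, of which Snora41 passed the filter only through the Folfiri samples. Snora17 passed it in both groups and was at 0.54, 0.68 and 0.98 CPM in controls and at 3.89, 4.84 and 3.61 CPM after Folfiri, which gave a log2 difference of 2.52 (SE 0.23, edgeR adjusted p = 2.69e-06). Snora31, named after its value was seen, also passed the filter in both groups, at 0.864, 2.48 and 2.57 CPM in controls and 1.81, 1.97 and 2.06 CPM after Folfiri. Its groups overlapped, and its log2 fold change was 0.02 (SE 0.32, edgeR adjusted p = 0.953). Such counts can include reads of host transcripts, which was not tested.
Most proliferation markers were lower after Folfiri, unlike the synthase genes. Of 10, 7 passed as lower, among them Top2a, Mki67 and Aurka at log2 fold changes of -1.65, -1.58 and -0.95, and 2 were higher, Mcm2 at 1.31 and Mcm5 at 0.34 (3 with total counts alone). Their part in the results above was not tested.

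**Figure D5:**
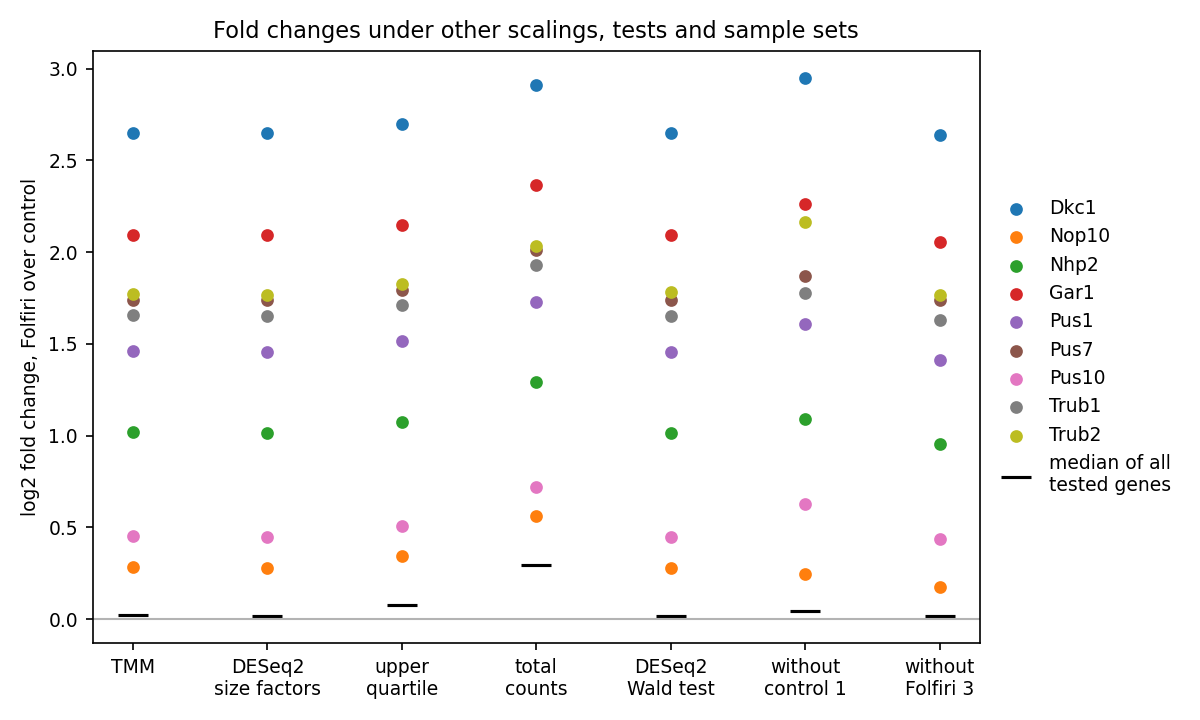
Log2 fold change (Folfiri over control) of the 9 tested genes under TMM, 3 other scalings, DESeq2's Wald test and with control replicate 1 or Folfiri replicate 3 left out; the black dash is the median of all tested genes. With total counts only, the genes move up together with that median (from 0.02 to 0.30), and Nop10 stays nearest to it throughout.

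The direction of the 9 genes was the same under each scaling tried. All of these scalings are relative to the library, so a change in total RNA per cell was not tested. When libraries were scaled by total counts alone, the median over all tested genes rose to 0.30, the log2 fold change of Nop10 became 0.56 and that of Pus10 0.72, and that of Dkc1 2.91. Relative to the median of all genes, Nop10 and Pus10 were thus the genes nearest to the background under each of these settings.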

How the data were processed

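RNA of MTO54 organoids was sequenced from poly(A)-selected libraries. The authors aligned reads with STAR 2.5.2 to the mouse genome (mm10, GRCm38) with GENCODE vM25 annotation, summarized them with Rsubread, and the deposited counts per gene are not normalized. Groups follow the sample titles. The full genotype of the line is not reported here. Symbols, positions and exonic lengths came from GENCODE vM21 on the same build, which holds 24168 of the 24190 identifiers.

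From the counts, edgeR 4.0.16 in R 4.3.3 was run with its default expression filter, TMM scaling and quasi-likelihood testing. P-values were adjusted by Benjamini-Hochberg over all 14692 genes tested, at a threshold of 0.05. Ratios between genes were compared by exact permutation. Promoter sequences were those of RefSeq on GRCm38.p6. The code was also run on simulated counts in which only a small part of the genes changed, unlike in these data, and no outcome is given here. The named genes were the 10 members and, in each further list, up to 3 genes per direction of largest change that passed the threshold, had no overlap between groups and averaged at least 1 CPM, and list genes not tested. The members, lists and promoter motifs were chosen with earlier results of these data known. Alternatives were DESeq2 size factors, total counts, scaling by upper quartiles, a stricter filter or none, the Wald test of DESeq2 1.42.0, the replicate number as a block, and each replicate left out. Depth was 22103591 to 30098210 counts per sample, and each tested member had at least 86 counts in every sample.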

Additional observations from a re-analysis of the deposited data

How the results depend on the processing

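Each of the 9 tested genes was higher after Folfiri under all 13 alternatives, and 116 of the 117 values stayed on the same side of the threshold. The exception was Nop10, whose log2 fold changes ran from 0.18 to 0.35 across the fits without 1 replicate and which lost its call without Folfiri replicate 3 (0.18, edgeR adjusted p = 0.0673). Leaving out 1 replicate gave 2.498 to 2.95 for Dkc1 and 1.57 to 2.17 for Trub2, both highest without control replicate 1, and 11021 to 12312 genes called in all. The number of the 9 genes higher was 8 to 9 in these fits, and 6 to 7 at a log2 fold change of at least 1, the lower number without control replicate 3 or Folfiri replicate 3, where Nhp2 was at 0.95 and 0.96. With no filter on low counts that last number was 6, since Nhp2 was at 0.99. Total counts only moved the share of higher genes among all calls from 51% to 63.3%. The log2 ratio of Trub1 to Trub2 differed between groups by -0.03 to -0.41 when 1 sample was left out, so its size rests on single controls.

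Samples with the same replicate number did not deviate together (correlations of 0.03, -0.12 and 0.04), so the number gives no pairing. With the replicate block 11499 genes were called in place of 11623, and no call of a member changed.

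The number of genes called higher fell by 1, to 5 of 6 further synthase genes and to 3 of 5 telomerase and end processing genes, in 9 of the 13 alternatives each.

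Counts in the marker lists moved by 1 gene. Epithelial markers called higher were 0 in place of 1 with no filter and with the replicate block, and 0 to 1 without 1 replicate. With at least 1 CPM in 3 samples, immune markers called higher became 1, fibroblast markers higher 1 and lower 0. Endothelial markers called higher became 1 and lower 1 with no filter, and lower 1 with the replicate block. Across the fits without 1 replicate, immune and endothelial markers called lower were each 0 to 1, the immune one without control replicate 1. The causes were not tested. The immune and fibroblast numbers that moved with the filter hold genes that passed it through 1 group only and give no direction.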
